A study of Mus musculus with 7 samples.

Results

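The genes described here carry 4 serial names, Wdr, Ttc, Lrrc and Iqc, given for the WD40, tetratricopeptide, leucine-rich and IQ calmodulin-binding repeats of their proteins. Every symbol made of such a stem and its number or letter was taken from the deposited tables, except 15 names set aside by the selection rule, of which 14 were present. This gave 168 genes of the 32531 symbols listed: 56 Wdr, 33 Ttc, 66 Lrrc and 13 Iqc genes. The rule uses names alone, but it was written with earlier results of these data known.

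RNA was sequenced from brain tissue dissected around the ventricles. The adult mice were of the line Dcdc2a-EGFP/Rpl10a (ES2575). In this line an EGFP-tagged ribosomal protein, Rpl10a, is made in cells where the Dcdc2a transgene is active, and tagged polysomes are captured with antibodies to EGFP (translating ribosome affinity purification, TRAP). There were 3 libraries of immunopurified ribosome-bound RNA (IP 1, 3 and 4), compared with 4 libraries of total RNA from the homogenate (Input 1 to 4). Both groups carry the transgene, no library from mice without it was used here, and 1 transgenic line stands for the cell type. The labels do not say whether the libraries came from separate animals, so p-values measure only the spread between these libraries, which may be technical. A lower level in bulk RNA cannot tell fewer cells of a type apart from less RNA per cell.

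WD40, tetratricopeptide and leucine-rich repeats stack into surfaces on which other proteins assemble, while the IQ motif is a short helix that binds calmodulin, and the proteins share no common task. Some are built into the motile axoneme, the microtubule shaft of a beating cilium, where radial spokes and the nexin-dynein regulatory complex link the outer microtubule doublets and control the dynein motors. Ependymal cells, which line the ventricles and move cerebrospinal fluid, carry tufts of such cilia. Other members act in ribosome assembly, chromatin, protein degradation, synapses or ion channels of most brain cells.

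Counts assigned to genes ranged from 37203427 to 52175180 per library, and 3 counts correspond to 0.0575 to 0.0806 counts-per-million units (CPM), a floor for counting error alone. The libraries differed in reads that fell in more than 1 gene, which made up 1.91%, 2.01% and 1.51% of all lines in IP 1, 3 and 4, against 9.33% to 12.9% in Input. These reads are not counted, so genes with overlapping exons may lose reads to a different degree in IP and Input. The effect on the folds was not tested. IP 1 stood apart within its group. By chi-square per degree of freedom of the gene counts, IP 1 lay 654 to 763 from the Input libraries. It lay further from IP 3 (901) and IP 4 (955). IP 3 and IP 4 lay 294 apart, and 594 to 792 from the Input libraries. The summed level of 12 ependymal marker genes reached 226, 3322 and 2695 CPM in IP 1, 3 and 4, against 25.01 to 44.1 CPM in Input. All 12 passed the test as higher in IP, but the list was made with earlier results of these data known. Their passing is therefore no independent support, and 1 of the 12, Lrrc18, is itself described below. Foxj1, the transcription factor of motile ciliated cells, is 1 of those 12 and had 32.2, 345 and 427 CPM in IP, against 13.0, 4.34, 9.34 and 6.19 CPM in Input. Dcdc2a, the gene that drives the transgene, had 43.6, 411 and 175 CPM in IP, against 27.7, 35.6, 73.9 and 44.2 CPM in Input (log2 fold 2.21, edgeR adjusted p = 0.0743). A same-numbered IP and Input shared a sequencing lane, so fits with the number as a block were also made.

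Of the 168 genes, 144 had enough counts to be tested (55 Wdr, 30 Ttc, 52 Lrrc and 7 Iqc). Tested by quasi-likelihood in edgeR, with p-values adjusted by Benjamini-Hochberg over all tested genes, 20 of the 144 rose in IP (13.9%), where 3.64% of all tested genes were called higher, and 3 fell (2.08%), where 2.16% of all tested genes were called lower. The median log2 fold of the 144 genes, IP over Input, was 0.29, and that of all tested genes was 0.058. A positive fold was seen in 97 of the 144 (67.4%), against 53.1% of all tested genes. In 31 members (21.5%) every IP library lay above every Input library, against 9.55% of all tested genes. In 13 (9.03%) every IP library lay below every Input library, against 10.4% of all tested genes. The middle of the set stayed close to Input, since 93 members had a log2 fold within 1 of 0. The upper tail was long, with 13 members (9.03%) above a log2 fold of 4, against 1.84% of all tested genes. Folds differed by Input level. Of 25 tested members under 2 CPM in mean Input, 24 had a positive fold and 9 rose. Genes that low in Input could reach the count filter through IP alone, which favours a positive fold. Of 86 members with at least 10 CPM in mean Input, 4 rose, 3 fell and 76 had a log2 fold within 1 of 0. All-gene shares by level are not given here.

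By name, 14 of the tested Lrrc genes rose (26.9%, against the 3.64% of all tested genes) and 1 fell, with a median log2 fold of 0.48. Of the Iqc genes 2 of 7 rose (28.6%) and 0 fell, and the median was 3.43. Among Ttc genes 3 rose (10%) and 1 fell, and among Wdr genes 1 rose (1.82%) and 1 fell, with medians of 0.24 in both. The Wdr share rests on 1 gene of 55 and is not read as different from that of all tested genes. Without IP 1, 8 of the 55 Wdr genes were called higher, where 12.5% of all genes were. No test of a difference between these names was made.

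**Figure D1:**
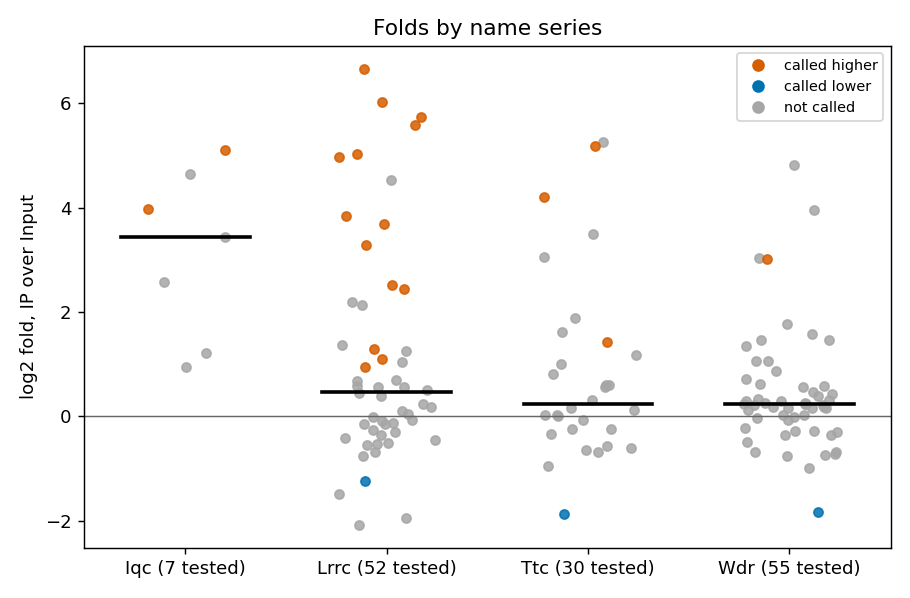
Log2 fold (IP over Input, vertical axis) of each tested gene by name series, with a bar at the median and colours for genes called higher, called lower or not called. The Iqc bar stands at 3.43 and the Lrrc bar at 0.48, with the Ttc and Wdr bars at 0.24 each; the highest point is Lrrc18 at 6.66.

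The number of calls depended on single libraries. Without IP 1, 40 members were called higher and 13 lower (27.8% and 9.03% of the 144, against 12.5% and 9.55% of all genes tested in that fit), and all 20 genes named below were among the 40. Without IP 3, 10 were called higher (6.94%, against 1.91% of all genes). Without Input 1 or Input 2, 1 member (Lrrc71) was called higher (0.123% and 0.0704% of all genes were). Without IP 4, Input 3 or Input 4 no member was called higher (0.0556%, 0.0235% and 0.0236% of all genes were). At an unadjusted p under 0.05, edgeR gave 40, 38 and 36 members with a positive fold in those last 3 fits, against 41 with all libraries. The shares of all genes at that cut are not given here. With the shared lane number as a block, 5 were called higher (3.47%, against 0.54% of all genes): Lrrc18, Lrrc36, Lrrc46, Lrrc71 and Wdr38. Wdr38 is not among the 20. The 16 others that were among them had adjusted p between 0.0518 and 0.307 in that fit, and none of the 3 lower calls was kept (0.17% of all genes were called lower). DESeq2 called 33 members higher and 6 lower, where 8.03% and 5.54% of all genes were called. Limma-voom called 1 higher and 3 lower, where 0.357% and 0.984% of all genes were called.

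Lrrc18 had the largest fold of all 144 genes. The gene lies on chromosome 14 (ENSMUSG00000041673.12, mm10, 32991382 to 33015291, plus strand), and its product has no role that is given here. It was read at 1.56, 58.1 and 45.0 CPM in IP 1, 3 and 4, against 0.0981, 0.112, 1.04 and 0.147 CPM in Input 1 to 4. The groups did not overlap, but IP 1 lay close to Input 3 while IP 3 and IP 4 were far above all 4 Input libraries. The log2 fold was 6.66 ± 1.29 (SE, edgeR adjusted p = 0.0249). Within lanes the log2 ratio of Lrrc18, IP over Input, reached 3.49, 5.75 and 7.87 in numbers 1, 3 and 4, and the blocked adjusted p was 0.0396.

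Members of the motile axoneme, and factors that build or deliver its dyneins, had the highest median of the 8 role lists. All 11 listed genes present in the tables were tested and all 11 had a positive fold, with a median log2 fold of 3.29. Of these 6 rose (54.5%, against 3.64% of all tested genes) and 0 fell. In 7 of the 11 every IP library lay above every Input library, against 9.55% of all tested genes. All 11 had an unadjusted edgeR p under 0.05, a cut for which the share of all genes is not given here. With the block 1 of the 11 was called higher, and without IP 1 10 were (0.54% and 12.5% of all genes were).

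Lrrc23, a radial spoke head protein, is encoded on chromosome 6 (ENSMUSG00000030125.11, mm10, 124769863 to 124779727, minus strand). It had 17.8, 251 and 223 CPM in IP 1, 3 and 4, against 5.86, 4.94, 7.18 and 3.05 CPM in Input 1 to 4. All IP libraries were above all Input libraries, with IP 1 the lowest of the 3. Its log2 fold was 4.96 ± 0.77 (SE, edgeR adjusted p = 0.0147, blocked adjusted p = 0.113). Iqcg belongs to the nexin-dynein regulatory complex and is needed for the sperm flagellum in mouse. It was read at 11.7, 172 and 163 CPM in IP, against 2.67, 1.59, 5.13 and 4.10 CPM in Input. The order of the 3 IP libraries was that of Lrrc23, all of them lay above Input, and the log2 fold was 5.10 ± 0.83 (SE, edgeR adjusted p = 0.0162, blocked adjusted p = 0.0665). Because 48.1% of the Iqcg exon length overlaps Lrch3 on the opposite strand, its reads are uncertain; Lrch3 itself fell in IP, by 1.15 on the log2 scale (edgeR adjusted p = 0.0249).

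A second subunit of the same complex, Lrrc48 (current symbol Drc3), had 12.9, 72.4 and 56.2 CPM in IP, against 7.996, 9.99, 10.5 and 4.69 CPM in Input. IP 1 was only just above the highest Input library. The log2 fold was 2.51 ± 0.52 (SE, edgeR adjusted p = 0.0262, blocked adjusted p = 0.142). Lrrc56, a factor for dynein delivery that is mutated in a human ciliary dyskinesia, had 4.33, 23.8 and 18.3 CPM in IP, against 0.638, 0.939, 2.68 and 2.09 CPM in Input. Its groups did not overlap, and the log2 fold was 3.29 ± 0.69 (SE, edgeR adjusted p = 0.0269, blocked adjusted p = 0.0534).

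Wdr66, found at the base of radial spokes, was the only Wdr gene that rose. It had 4.18, 52.1 and 43.7 CPM in IP, against 6.60, 2.55, 4.15 and 3.07 CPM in Input. IP 1 fell inside the Input range, and in its own lane it was below Input, with a log2 ratio of -0.65, where IP 3 and IP 4 had 3.64 and 3.81. The log2 fold over all libraries was 3.02 ± 0.71 (SE, edgeR adjusted p = 0.0401, blocked adjusted p = 0.307). Lrrc46, needed for the sperm flagellum in mouse, had 1.72, 27.2 and 34.3 CPM in IP, against 0.27, 1.61, 1.34 and 2.68 CPM in Input. Here too IP 1 lay inside the Input range, and the call was kept with the block (log2 fold 3.84 ± 0.96, SE, edgeR adjusted p = 0.0492, blocked adjusted p = 0.0416).

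The other 5 axonemal genes did not pass. Iqca, the relative of a nexin-link subunit known from Chlamydomonas, had 2.02, 26.8 and 35.6 CPM in IP, against 1.67, 0, 0.573 and 1.18 CPM in Input (log2 fold 4.65 ± 1.25, SE, edgeR adjusted p = 0.0639). Ttc29, a protein of the sperm flagellum, had 0.521, 36.5 and 31.5 CPM in IP, against 0.0245, 0, 2.29 and 0.0982 CPM in Input (log2 fold 5.26 ± 1.75, SE, edgeR adjusted p = 0.117). In Ttc29 the groups overlapped through IP 1 and Input 3. Iqcd, another nexin-link subunit, had 1.04, 6.498 and 2.87 CPM in IP, against 0.466, 0.738, 0.519 and 0.589 CPM in Input (log2 fold 2.58 ± 0.86, SE, edgeR adjusted p = 0.108).

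Ttc12 and Wdr92 act in the cytoplasm where dynein arms are put together before transport into the cilium. Ttc12 had 8.11, 39.1 and 24.5 CPM in IP, against 5.42, 7.82, 8.71 and 4.03 CPM in Input (log2 fold 1.88 ± 0.51, SE, edgeR adjusted p = 0.0577). Wdr92 differed in pattern, at 29.0, 26.8 and 28.0 CPM in IP, against 9.81, 17.3, 16.3 and 9.92 CPM in Input (log2 fold 1.07 ± 0.31, SE, edgeR adjusted p = 0.0712). In Wdr92 the 3 IP libraries were level with each other and all above Input. Its exons overlap Ppp3r1 and Pno1 over 19.8% of their length.

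**Figure D2:**
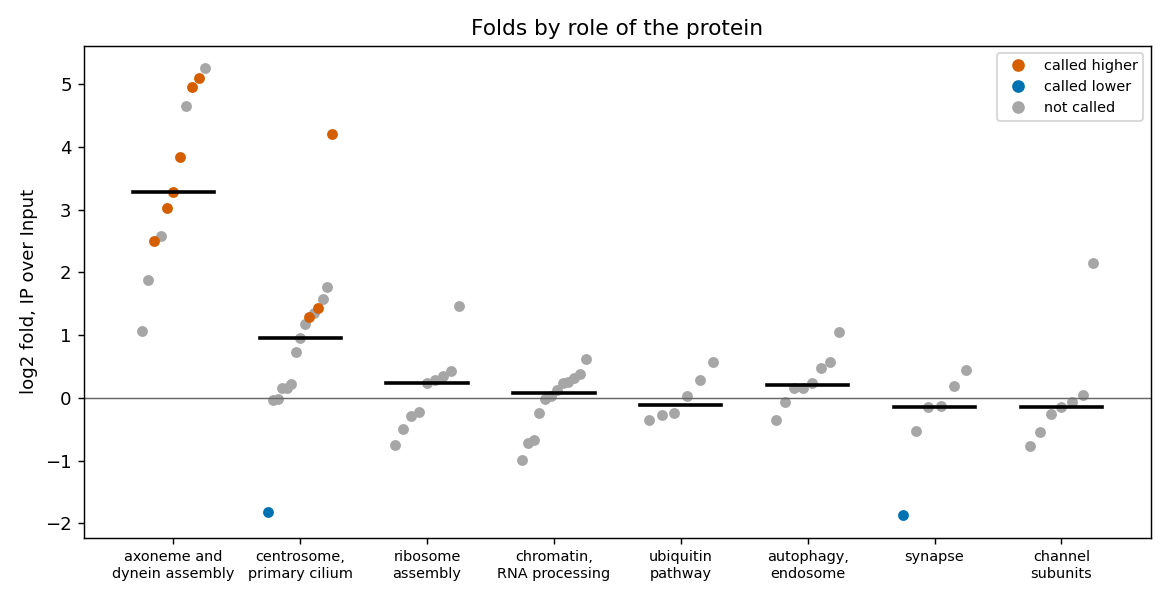
Log2 fold (IP over Input, vertical axis) of each tested gene in 8 role lists, with a bar at the median and colours for genes called higher, called lower or not called. The axoneme bar stands at 3.29 and the centrosome and primary cilium bar at 0.95; the bars of the other 6 lists lie between -0.15 and 0.24.

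RFX transcription factors, which drive ciliary genes, bind the X-box, whose core on 1 side reads GTTGCC. Both strands were searched for it (GTTGCC or GGCAAC on the gene's strand) in RefSeq promoters of the build GRCm38.p6, from 250 bases before to 50 after the start. A promoter was found for 15 of the 20 genes that rose, not for Lrrc16a, Lrrc18, Lrrc36, Lrrc46 and Lrrc61. The letters were present in 6 of the 15 (40.0%; Wilson 95% interval 19.8% to 64.3%), in 15 of 102 tested members not called higher (14.7%; 9.12% to 22.9%) and in 1807 of 11867 tested genes with a promoter (15.2%; 14.6% to 15.9%). Those with a match were Iqcg, Lrrc23, Lrrc43, Lrrc56, Lrrc71 and Ttc21a. In Lrrc71 and Ttc21a it lay after the start, at bases 45 and 7. Lrrc56 had 2 promoter windows, and only promoter 2 held a match. A match is a description of letters and not a bound site.

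The 250 bases before the start are shown for the 4 genes with a match in that window, 5′ to 3′ on the gene's strand with the matches in capitals. They are chr16:33056187-33056436 (minus strand) for Iqcg, chr6:124779728-124779977 (minus) for Lrrc23, chr5:123489075-123489324 (plus) for Lrrc43 and chr7:141194893-141195142 (plus) for Lrrc56.
Iqcg: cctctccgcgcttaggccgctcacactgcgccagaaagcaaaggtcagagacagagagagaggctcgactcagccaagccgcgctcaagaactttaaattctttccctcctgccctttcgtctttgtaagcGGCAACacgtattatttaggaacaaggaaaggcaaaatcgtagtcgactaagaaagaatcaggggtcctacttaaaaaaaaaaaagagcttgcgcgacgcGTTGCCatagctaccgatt
Lrrc23: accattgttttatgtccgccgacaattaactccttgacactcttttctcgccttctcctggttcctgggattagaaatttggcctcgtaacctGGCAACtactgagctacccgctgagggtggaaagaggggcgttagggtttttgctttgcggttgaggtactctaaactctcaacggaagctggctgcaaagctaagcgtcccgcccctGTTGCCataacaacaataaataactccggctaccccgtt
Lrrc43: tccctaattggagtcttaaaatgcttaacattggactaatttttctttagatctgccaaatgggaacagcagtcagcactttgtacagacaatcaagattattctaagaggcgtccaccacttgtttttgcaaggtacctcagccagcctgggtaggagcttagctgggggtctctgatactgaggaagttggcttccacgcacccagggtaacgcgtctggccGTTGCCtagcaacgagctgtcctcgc
Lrrc56: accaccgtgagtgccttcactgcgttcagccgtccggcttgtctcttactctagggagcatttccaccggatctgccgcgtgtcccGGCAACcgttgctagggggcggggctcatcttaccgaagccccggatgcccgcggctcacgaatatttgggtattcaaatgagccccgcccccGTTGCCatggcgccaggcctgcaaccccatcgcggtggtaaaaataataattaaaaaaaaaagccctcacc
Counted from the start, the matches began at -119 and -19 in Iqcg, at -157 and -39 in Lrrc23, and at -164 and -71 in Lrrc56. In each of these 3 GGCAAC came first and GTTGCC followed nearer the start. Lrrc43 had a single match, at -26.

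Among members of the centrosome and primary cilium the picture was mixed. Of 15 tested, 3 rose (20%, against 3.64% of all tested genes), 1 fell and 12 had a positive fold. Their median log2 fold was 0.95. Ttc21a, a relative of an intraflagellar transport gene and linked to sperm flagella in humans, had 4.14, 21.1 and 31.0 CPM in IP, against 1.23, 0.291, 0.683 and 1.87 CPM in Input. All IP libraries lay above Input, and the log2 fold was 4.20 ± 0.78 (SE, edgeR adjusted p = 0.0188, blocked adjusted p = 0.0949). Lrrc45, a linker protein of the centrosome, had 26.9, 24.8 and 25.9 CPM in IP, against 7.41, 14.4, 10.2 and 10.3 CPM in Input. Its IP libraries were nearly equal, IP 1 included, and the log2 fold was 1.29 ± 0.31 (SE, edgeR adjusted p = 0.0385, blocked adjusted p = 0.129). Ttc28, which acts in cell division, had 43.7, 26.5 and 34.1 CPM in IP, against 13.1, 10.4, 19.0 and 9.24 CPM in Input. Here IP 1 was the highest library (log2 fold 1.43 ± 0.33, SE, edgeR adjusted p = 0.0357, blocked adjusted p = 0.174). Iqce, which works in Hedgehog signalling at the primary cilium, had 35.8, 19.2 and 34.5 CPM in IP, against 14.96, 11.6, 14.9 and 20.3 CPM in Input, and did not pass (log2 fold 0.95 ± 0.32, SE, edgeR adjusted p = 0.113).

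The gene of that list that fell was Wdr44, on chromosome X (ENSMUSG00000036769.14, mm10, 23693051 to 23806025, plus strand), whose product binds Rab11 and holds back the start of ciliogenesis. It had 7.61, 8.48 and 9.28 CPM in IP, against 25.5, 31.7, 29.0 and 33.7 CPM in Input. The groups were far apart and each was tight, with no library out of place. The log2 fold was -1.83 ± 0.28 (SE, edgeR adjusted p = 0.0129, blocked adjusted p = 0.077).

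The other 2 genes that fell were Ttc9b and Lrrc28. Ttc9b, counted in the list of synaptic adhesion and scaffold genes, had 7.75, 4.69 and 6.53 CPM in IP, against 23.7, 22.7, 23.5 and 22.8 CPM in Input (log2 fold -1.87 ± 0.31, SE, edgeR adjusted p = 0.0147, blocked adjusted p = 0.091). The Input libraries were almost equal; 29.8% of the exon length overlaps Map3k10 on the opposite strand, so the reads are uncertain. Lrrc28 had 19.6, 32.8 and 26.4 CPM in IP, against 59.0, 66.2, 52.4 and 69.5 CPM in Input (log2 fold -1.23 ± 0.25, SE, edgeR adjusted p = 0.0249, blocked adjusted p = 0.136). In all 3 lanes all 3 lower genes were below Input, with median log2 ratios of -1.61 in number 1, -1.77 in number 3 and -1.80 in number 4.

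Of the 20 genes that rose, 11 stood in none of the role lists. They were 11 of the 70 tested members in no list (15.7%), close to the 13.9% of all 144 tested members. Lrrc71, on chromosome 3 (ENSMUSG00000023084.11, mm10, 87736923 to 87748625, minus strand), had 2.48, 10.5 and 12.3 CPM in IP, against 0.0736, 0.224, 0.109 and 0.0982 CPM in Input. All 3 IP libraries were well above Input, which was near the floor of 3 counts. The log2 fold was 6.02 ± 0.82 (SE, edgeR adjusted p = 0.0105, blocked adjusted p = 0.0416), and 4 of the 7 fits that left out a library kept the call. Part of the gene, 28.8% of its exon length, overlaps Arhgef11 on the opposite strand and Pear1 on the same strand, which makes its reads uncertain; Pear1 also rose (log2 fold 5.11, edgeR adjusted p = 0.0421).

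Lrrc36 had 9.61, 133 and 76.3 CPM in IP, against 0.123, 0.648, 4.04 and 1.35 CPM in Input. The IP and Input libraries of a number were far apart in every lane, by log2 ratios of 5.85, 5.03 and 5.77 in numbers 1, 3 and 4. Over all libraries the log2 fold was 5.58 ± 1.13 (SE, edgeR adjusted p = 0.0283, blocked adjusted p = 0.00428). Lrrc43 had 0.441, 10.3 and 13.4 CPM in IP, against 0.466, 0.0447, 0.0546 and 0.0246 CPM in Input. IP 1 was no higher than Input 1, so the groups overlapped (log2 fold 5.74 ± 1.32, SE, edgeR adjusted p = 0.0354, blocked adjusted p = 0.292).

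Lrrc74b had 5.07, 90.2 and 78.0 CPM in IP, against 2.502, 0.559, 3.71 and 0.344 CPM in Input (log2 fold 5.02 ± 1.07, SE, edgeR adjusted p = 0.0328, blocked adjusted p = 0.198). Ttc16 had 1.82, 15.5 and 14.5 CPM in IP, against 0, 0.38, 0.218 and 0.565 CPM in Input (log2 fold 5.17 ± 1.12, SE, edgeR adjusted p = 0.03, blocked adjusted p = 0.0518). Iqck had 3.02, 57.0 and 40.9 CPM in IP, against 1.69, 2.73, 2.38 and 1.77 CPM in Input (log2 fold 3.97 ± 0.77, SE, edgeR adjusted p = 0.0231, blocked adjusted p = 0.154). In these 3 genes the groups did not overlap, with IP 1 the closest to Input each time. In Iqck 15.9% of the exon length overlaps Gprc5b and Knop1 on the opposite strand. Lrrc51 had 19.5, 157 and 115 CPM in IP, against 5.15, 8.16, 6.31 and 10.5 CPM in Input (log2 fold 3.69 ± 0.60, SE, edgeR adjusted p = 0.0156, blocked adjusted p = 0.0617), and 49.6% of its exon length overlaps Lamtor1 on the opposite strand, so its reads are uncertain. Lrrc2 had 7.15, 19.4 and 18.7 CPM in IP, against 1.15, 2.95, 3.82 and 3.22 CPM in Input (log2 fold 2.44 ± 0.53, SE, edgeR adjusted p = 0.0307, blocked adjusted p = 0.0723). In both IP 1 was the lowest IP library, with no overlap between the groups.

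Lrrc16a and Lrrc61 had smaller folds over higher Input levels. Lrrc16a (current symbol Carmil1), a regulator of actin capping, had 60.6, 62.9 and 66.6 CPM in IP, against 32.1, 29.5, 25.8 and 31.5 CPM in Input (log2 fold 1.09 ± 0.20, SE, edgeR adjusted p = 0.0196, blocked adjusted p = 0.129). It was the single member called higher by limma-voom. Lrrc61 had 50.7, 72.8 and 75.5 CPM in IP, against 32.2, 39.7, 31.1 and 35.1 CPM in Input (log2 fold 0.94 ± 0.23, SE, edgeR adjusted p = 0.04, blocked adjusted p = 0.162). Its reads are uncertain, since 30.6% of its exon length overlaps Rarres2 on the opposite strand. That gene, an ependymal marker, also rose (log2 fold 6.25, edgeR adjusted p = 0.0147).

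**Figure D3:**
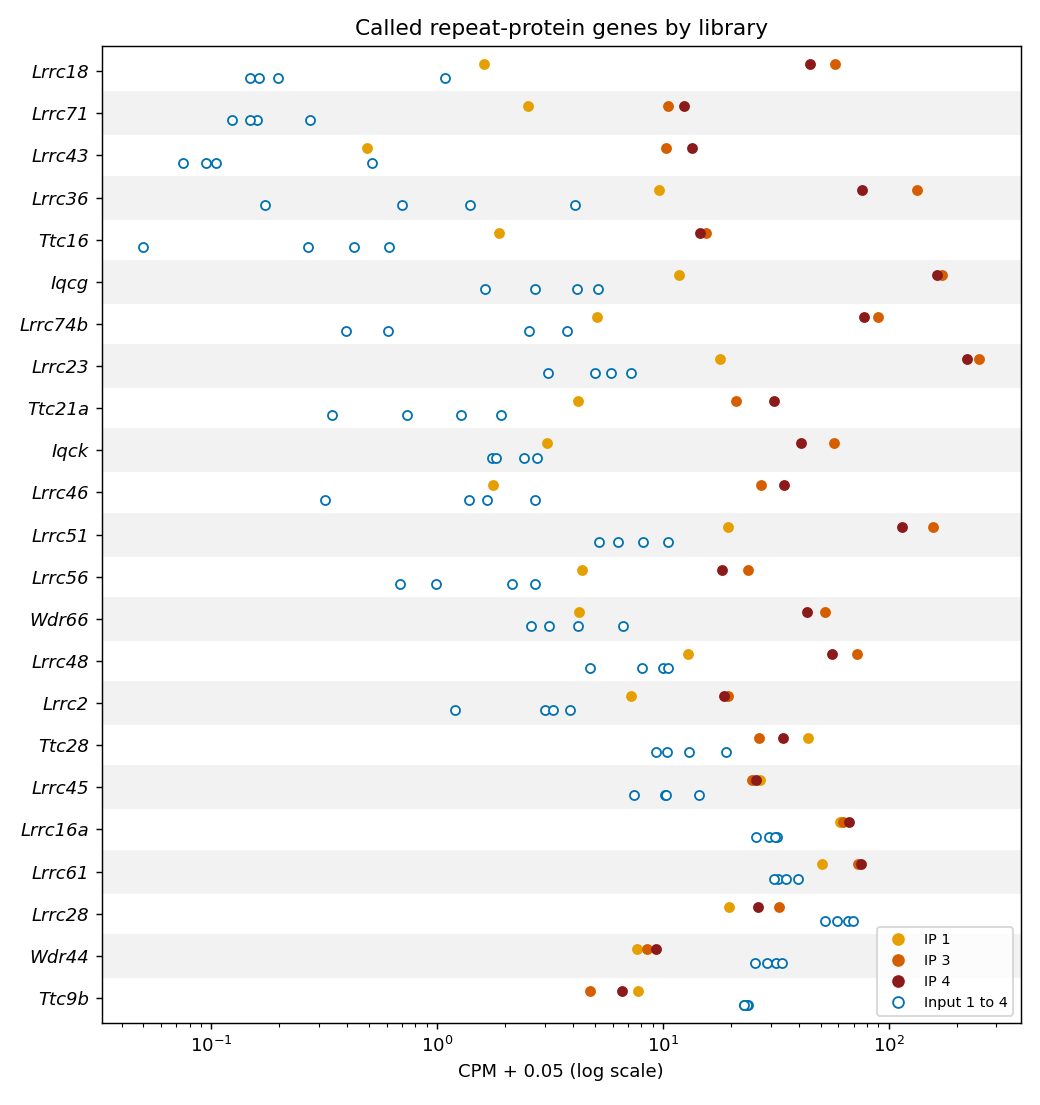
CPM plus 0.05 (log axis) in each library for the 20 genes called higher and, in the 3 bottom rows, the genes called lower; filled points are IP 1, 3 and 4 and open circles are Input 1 to 4. In Lrrc18 IP 3 and IP 4 stand at 58.1 and 45.0 CPM with IP 1 at 1.56 CPM, while the 3 IP points of Lrrc45 lie between 24.8 and 26.9 CPM.

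The 20 genes fell into 16 with a log2 fold over 2 and 4 (Lrrc16a, Lrrc45, Lrrc61 and Ttc28) under 1.5. In all 16, IP 1 was the lowest IP library. Their median log2 ratio to the mean of Input reached 1.45, 5.12 and 5.13 in IP 1, 3 and 4. For the other 4 the medians were 1.19, 1.08 and 1.23. Over all 20, the medians within lanes were 1.80 in number 1, 4.57 in number 3 and 3.91 in number 4, and 18, 20 and 20 of the 20 were above Input of the same lane. The ependymal marker sum moved across the IP libraries with the 16, being lowest in IP 1. Lrrc18 is counted in both, and the part of the marker sum in the result was not tested.

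**Figure D4:**
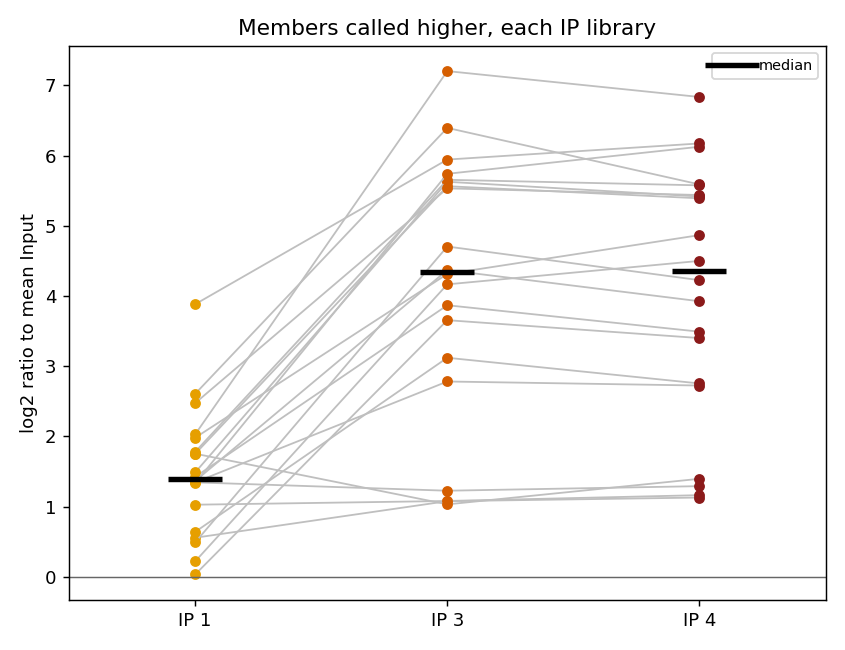
Log2 ratio of each IP library to the mean of Input (vertical axis) for the 20 genes called higher, 1 line per gene, with a bar at the median of each library. The medians are 1.39 in IP 1, 4.34 in IP 3 and 4.36 in IP 4. The 4 genes with a log2 fold under 1.5 have medians of 1.19, 1.08 and 1.23 in IP 1, 3 and 4.

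Levels between genes were compared per length, as mean CPM per kilobase (kb) of exon. Lrrc10b, a gene with no role that is given here, was the highest member in IP, at 164 CPM per kb, against 63.4 CPM per kb in Input, where it was second. Ttc3, a ubiquitin ligase, was the third in IP at 84.8 CPM per kb and the first in Input at 100.3 CPM per kb. Between them in IP stood Lrrc23, at 94.4 CPM per kb in IP and 3.03 CPM per kb in Input, where it ranked 79. Lrrc51 was the fourth, at 80.3 CPM per kb in IP and 6.23 CPM per kb in Input, where it ranked 50. These 4 neighbours are not separated beyond their spread in IP, since Lrrc10b ranged from 100.2 to 249.7 CPM per kb in the IP libraries, Ttc3 from 63.4 to 124, Lrrc23 from 10.3 to 145 and Lrrc51 from 16.1 to 129.5. Lrrc18 had 11.1 CPM per kb in IP and 0.111 in Input.

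**Figure D5:**
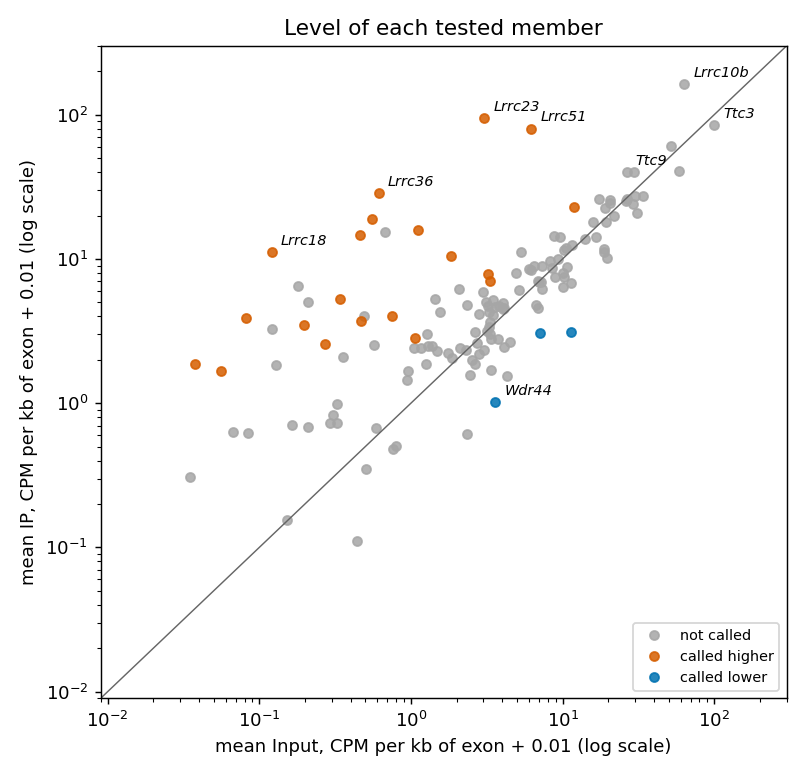
Mean CPM per kb of exon plus 0.01 in IP (vertical log axis) against Input (horizontal log axis) for each tested gene, with the line of equal levels and colours for genes called higher, called lower or not called. Lrrc23 and Lrrc51 rise to 94.4 and 80.3 CPM per kb in IP, close to Lrrc10b and Ttc3, while most genes lie along the line.

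Ttc3 and Lrrc10b, the highest in Input per length, did not pass the test. Ttc3 had 2004, 1096 and 1029 CPM in IP, against 1678, 1840, 1590 and 1399.5 CPM in Input (log2 fold -0.24 ± 0.25, SE, edgeR adjusted p = 0.628). Lrrc10b had 525, 211 and 297 CPM in IP, against 121, 77.4, 140 and 196 CPM in Input (log2 fold 1.37 ± 0.35, SE, edgeR adjusted p = 0.0516). In both genes IP 1 was the highest library. Ttc9, a gene with no role that is given here, had 78.3, 282 and 215 CPM in IP, against 121, 136, 133 and 117 CPM in Input, with IP 1 below and IP 3 and IP 4 above Input (log2 fold 0.60 ± 0.35, SE, edgeR adjusted p = 0.348).

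The 6 remaining role lists held 1 call, Ttc9b. Of 9 ribosome assembly genes 0 passed, and the median log2 fold was 0.24. Their smallest p was that of Wdr46, with 9.87, 16.7 and 10.3 CPM in IP, against 4.61, 4.11, 4.15 and 5.01 CPM in Input (log2 fold 1.46 ± 0.39, SE, edgeR adjusted p = 0.0536). It was followed by Wdr12 (log2 fold -0.76, edgeR adjusted p = 0.218). Of 12 chromatin and RNA processing genes 0 passed (median 0.074), with Wdr70 at a log2 fold of -0.72 (edgeR adjusted p = 0.0992) and Wdr83 at -0.995 (edgeR adjusted p = 0.212). Of 6 ubiquitin pathway genes 0 passed (median -0.11), with Lrrc41 at 0.57 (edgeR adjusted p = 0.179) and Wdr26, a subunit of the CTLH ligase, at -0.28 (edgeR adjusted p = 0.414). Of 8 autophagy and endosome genes 0 passed (median 0.20), with Wdr81 at 1.06 (edgeR adjusted p = 0.272) and Wdr6 at 0.48 (edgeR adjusted p = 0.412). Exon overlap with other genes makes the reads of Wdr83 (23.7%) and Lrrc41 (31.9%) uncertain. At an unadjusted edgeR p under 0.05 stood 2 ribosome assembly genes (Wdr46 higher, Wdr12 lower) and 2 chromatin and RNA processing genes, both lower. That cut was also passed by 1 ubiquitin pathway gene, higher, and by 0 autophagy and endosome genes. The share of all genes at that cut is not given here. DESeq2 called 1 ribosome assembly gene higher, 1 chromatin and RNA processing gene lower, and none of the other 2 lists.

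In the list of 6 synaptic adhesion and scaffold genes 1 fell, Ttc9b, for which no synaptic role is given here. The median log2 fold of the list was -0.14. Lrrc4c, the netrin-G ligand of axons and synapses, had 168, 214 and 181 CPM in IP, against 292, 291, 248 and 256 CPM in Input. Every IP library lay below Input, and the gene did not pass (log2 fold -0.53 ± 0.18, SE, edgeR adjusted p = 0.107). Of 7 tested channel subunits 0 passed in edgeR or DESeq2, and the median was -0.15. An unadjusted edgeR p under 0.05 was found in 1 of them (lower), a cut for which the share of all genes is not given here. Lrrc8a, the essential subunit of volume-regulated anion channels, had 122, 88.6 and 142 CPM in IP, against 152, 139, 121 and 109 CPM in Input (log2 fold -0.15 ± 0.22, SE, edgeR adjusted p = 0.743). Its reads are uncertain, since 68.3% of its exon length overlaps other gene models. Of the auxiliary subunits of BK potassium channels, Lrrc55 had a log2 fold of -0.76 (edgeR adjusted p = 0.219) and Lrrc26 one of 2.14 (edgeR adjusted p = 0.469). Lrrc26 was low in all libraries, at 0.572, 0.50 and 1.02 CPM per kb in IP, against 0, 0.413, 0 and 0.206 in Input.

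Several members with large folds did not pass, and IP 1 lay far below IP 3 and IP 4 in them. Lrrc34, a gene with no role that is given here, had 3.70, 51.6 and 31.3 CPM in IP, against 2.35, 0.0447, 0.218 and 2.38 CPM in Input (log2 fold 4.53 ± 1.23, SE, edgeR adjusted p = 0.0656). Wdr38 had 0.721, 15.8 and 11.3 CPM in IP, against 0, 1.21, 0.0819 and 0 CPM in Input (log2 fold 4.82 ± 1.67, SE, edgeR adjusted p = 0.127). The groups of Wdr38 overlapped through Input 2, the library left out of the blocked fit, in which Wdr38 passed (adjusted p = 0.0369); 28.9% of its exon length overlaps other genes. Wdr93 had 0, 6.04 and 6.57 CPM in IP, against 0.0981, 0.0224, 0.792 and 0.172 CPM in Input (log2 fold 3.95 ± 1.65, SE, edgeR adjusted p = 0.187).

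The reverse held for Lrrc29 and Lrrc39, again with no role that is given here. Lrrc29 had 6.61, 0.33 and 0.234 CPM in IP, against 3.92, 6.59, 14.7 and 11.6 CPM in Input (log2 fold -1.94 ± 1.10, SE, edgeR adjusted p = 0.336). IP 1 was inside the Input range, and without it the log2 fold was -5.02 (edgeR adjusted p = 0.000314). Lrrc39 had 1.32, 0.154 and 0.117 CPM in IP, against 2.48, 2.28, 1.83 and 2.41 CPM in Input (log2 fold -2.08 ± 1.08, SE, edgeR adjusted p = 0.288); without IP 1 the log2 fold was -4.03 (edgeR adjusted p = 0.0285). The exons of Lrrc39 overlap other genes over 35.8% of their length. Ttc39b had 136, 103 and 72.6 CPM in IP, against 173, 248.7, 185 and 189 CPM in Input, all IP libraries being lower (log2 fold -0.94 ± 0.25, SE, edgeR adjusted p = 0.0522; without IP 1, -1.18 and 0.00073).

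The 24 members left untested were 14 Lrrc, 6 Iqc, 3 Ttc and 1 Wdr gene. Of these, 13 had 0 counts in all 7 libraries, among them Iqcf1, Iqcf3, Lrrc10, Lrrc15, Lrrc30, Lrrc52, Ttc24 and Wdr64. At most 9 counts in every library were found in 16 of the 24. Of the other 8, Lrrc17 had 12, 8 and 75 counts in IP, against 0, 1, 1 and 0 counts in Input, and Iqcf5 had 29, 15 and 10 counts in IP, against 0, 0, 2 and 0 counts in Input. No fold is given for them.

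Genes outside the set were counted in the same way, beside 3.64% called higher and 2.16% called lower over all tested genes. Of the 14 tested genes set aside by the selection rule, 4 rose and 0 fell (median log2 fold 1.29): Ttc8, Ttc25, Wdr34 and Wdr63, with Wdr63 showing the smallest adjusted p (log2 fold 5.07, edgeR adjusted p = 0.0184). Of 28 other motile cilium genes 19 rose and 0 fell, with a median of 3.80; 3 of the 28 (Foxj1, Pifo and Cfap126) are also among the 12 ependymal markers. Markers of other cell types stood beside them. Of 14 pericyte, smooth muscle and fibroblast markers 7 rose (median log2 fold 3.62), none was at 0 in all libraries, and they summed to 137, 1512 and 771 CPM in IP 1, 3 and 4, against 95.8 to 157 CPM in Input. That sum moved with the 16 genes of large fold, lowest in IP 1; its part in the result was not tested. Choroid plexus markers summed to 1299.6, 3007 and 3099 CPM in IP, against 2310.4 to 4159.9 CPM in Input, with 0 of 8 passing. Neuronal markers summed to 11682, 9099 and 8303 CPM in IP, against 10323 to 13407 CPM in Input, with 0 of 10 passing. Of 8 oligodendrocyte markers 2 fell, of 8 endothelial markers 1 rose, of 8 astrocyte markers 1 rose and of 8 microglial markers 0 passed. Without IP 1, 12 pericyte, smooth muscle and fibroblast, 5 astrocyte, 2 choroid plexus and 1 endothelial marker were called higher (12.5% of all genes). In that fit 4 oligodendrocyte, 2 neuronal and 1 astrocyte marker were called lower (9.55% of all genes). DESeq2 called 2 astrocyte markers higher and 4 oligodendrocyte markers lower (8.03% and 5.54% of all genes). At an unadjusted edgeR p under 0.05 stood 1 choroid plexus, 2 neuronal and 1 microglial marker, and DESeq2 called 0 of these 3 lists. For that unadjusted cut the share of all genes is not given here.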

How the data were processed

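Whole-number counts per gene symbol were deposited by the authors, 1 table per library; the submitters' processing notes name STAR 2.0.0e, HTSeq and build mm10. The sources used here do not give the annotation, the strand setting or the library kit, so overlapping and antisense genes cannot be told apart. Reads that fell outside genes, that were ambiguous between genes or that aligned more than once (together 40.1% to 52.1% per library) stayed out. Reads aligned to several places, which HTSeq tables report apart, made up 19.8%, 29.6% and 39.3% in IP 1, 3 and 4, against 20.9% to 21.2% in Input.

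Genes were kept with filterByExpr (minimum count 10, total 15), leaving 17375, scaled with TMM, and tested with edgeR 4.0.16 (quasi-likelihood, robust) in R 4.3.3, group as the only term, threshold 0.05. The model was also run on simulated counts, in which no library was set apart as IP 1 was. That run cannot show how the calls depend on single libraries, and its outcome is not given here. CPM are on the TMM scale, with log2 ratios at a prior count of 2. Each SE was derived as the size of the log2 fold divided by the square root of its quasi-likelihood F. Exon lengths, positions and overlaps came from GENCODE release M21, matched by symbol for 164 members and by RefSeq synonym for 4. Reads were named uncertain above 20% exon overlap, and smaller overlaps may also affect counts. Alternatives were RLE factors, total counts, no filter, DESeq2 1.42.0, limma-voom (limma 3.58.1), leaving out each library, and a block on replicate number without Input 2. A number marks a shared lane, as the library names show, so the block is treated as pairing; deviations of same-numbered libraries correlated at 0.0318, 0.0426 and 0.0258, each the highest for its IP library. No 2 libraries were alike within sampling noise.

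The members and lists were chosen with earlier results of these data known. Named genes were Lrrc18, all called members, the 2 largest and 2 smallest folds and 2 highest levels of each name series, the 2 smallest p of each role list and members called with the block. A likeness to Lrrc18 across libraries, planned as well, was left out because the 7 libraries form 2 groups. Genes outside this rule were chosen after their values were seen: Iqcd, Ttc12, Wdr92, Lrrc34, Lrrc8a, Lrrc17, Iqcf5, and those at 0. Protein sequences were not analysed here. Wilson intervals cover counting error only.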

Additional observations from a re-analysis of the deposited data

Results flagged for a closer look

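In 5 of 49 named genes, 1 of the 4 Input libraries lay far from the other 3; chance alone marks about 1 in 20 such groups. Lrrc18 stood out in Input 3, at 1.04 CPM, with the other 3 between 0.0981 and 0.147 CPM. Ttc29 stood out in the same library, at 2.29 CPM, with the others at 0 to 0.0982 CPM. Lrrc43 was high in Input 1, at 0.466 CPM, with the others at 0.0246 to 0.0546 CPM. Wdr38 was high in Input 2, at 1.21 CPM, with the others at 0 to 0.0819 CPM. Wdr47 was low in Input 4, at 105 CPM, with the others at 135 to 141 CPM. In IP it had 164, 111 and 104 CPM (log2 fold -0.034; edgeR adjusted p = 0.948).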

How the results depend on the processing

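Over all genes, 633 were called higher and 376 lower. The counts were 92 and 29 with the replicate block, 1396 and 962 with DESeq2, and 62 and 171 with limma-voom. Leaving out each library in turn gave 4 to 2259 called higher and 16 to 1724 lower. Of the members 20 were called higher and 3 lower. The counts were 5 and 0 with the replicate block, 33 and 6 with DESeq2, and 1 and 3 with limma-voom. Leaving out each library gave 0 to 40 higher and 0 to 13 lower, and a median log2 fold of the members of 0.20 to 0.47. RLE factors kept all 20 calls, total counts kept all 20 and added 1, and no filter kept 15 and added 1. Of the 49 named genes, 19 lost their call with the block and 20 with limma-voom. DESeq2 added 5 calls and lost none. Signs turned in 2 genes that were not called: the log2 fold of Wdr47, -0.034, ranged from -0.27 to 0.087 and that of Wdr13, 0.58, from -0.22 to 0.90 when a library was left out. The cause was not tested. The X-box letters were found in 26.7% of the promoters of genes that rose when bases after the start were left out (Wilson 95% interval 10.9% to 52.0%), against 14.7% of members not called higher and 12.9% of all tested genes with a promoter. With 3 IP libraries and 1 far from the others, the size of the folds is poorly fixed, and genes near 3 counts in Input have folds that depend on the prior count.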

Other observations

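GGCAAC and GTTGCC were both present, at any spacing, in 1 promoter window for 3 of the 15 genes that rose and had a promoter (20%: Iqcg, Lrrc23 and Lrrc56), against 89 of 11867 tested genes with a promoter (0.75%). This count was made after the windows had been seen, and it is given with no test. Wdr13, a WD40 gene of chromosome X, had 254, 90.9 and 67.3 CPM in IP 1, 3 and 4, against 102, 79.9, 82.8 and 103 CPM in Input, so that IP 1 stood well above the other libraries (log2 fold 0.58 ± 0.39, SE; edgeR adjusted p = 0.435). Iqcc, a gene with no role that is given here, had 12.2, 5.90 and 5.05 CPM in IP, against 3.14, 2.64, 3.71 and 3.83 CPM in Input, with all IP libraries above Input and IP 1 the highest (log2 fold 1.21 ± 0.49, SE; edgeR adjusted p = 0.177).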
